A study of Homo sapiens with 2 samples.

Results

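The cells described here were 256 cells of the day 10 library that the deposited metadata typed as enteric neural crest (ENC) but placed in none of the numbered subclusters ENC 1 to ENC 4. They were selected as cells whose type was ENC and whose subtype did not begin with that name, and all 256 carried the subtype Non-NC. They made up 5.20% of the 4921 cells typed ENC and 3.51% of the 7295 day 10 cells that passed the authors' quality filters, out of 15947 cells in both libraries of the series. The subtype came from clustering of these same counts, so every difference between classes below is a description of how the clusters divide and no test was made.

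The study differentiated H9, a human embryonic stem cell line, towards enteric neural crest, the crest population that colonizes the gut. All cells of the day 10 library grew as an adherent monolayer in medium with BMP4, the activin and TGF-β receptor inhibitor SB431542 and the GSK3 inhibitor CHIR99021 first, then with both inhibitors, and then with both inhibitors and retinoic acid. Cells of 2 biological repeats were pooled and captured as 1 library by the 10x Genomics 3′ assay, and the metadata do not say which cell came from which repeat, so day 10 counts as 1 sample. The second library held day 15 crestospheres, free-floating spheres formed from the same kind of culture. The groups compared here all came from the day 10 library and shared genotype, medium and handling: the 256 Non-NC cells, 4665 cells of ENC 1 to ENC 4, 1811 cells typed NEP (neuroepithelial progenitors), 324 typed CP (cranial placode) and 239 typed NNE (non-neural ectoderm).

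Neural crest cells arise at the border of the neural plate. They leave the neuroepithelium after switching on transcription factors such as SOX10, FOXD3 and TFAP2B, and they later form peripheral neurons, glia, pigment cells and part of the face. Cells that stay in the neural plate form the neuroepithelium, which keeps N-cadherin and is patterned by PAX6, ZIC and OTX factors and by WNT, BMP and retinoic acid signals. Retinoic acid sets position along the body axis through HOX genes, and cells exposed to it switch on CYP26A1, the enzyme that degrades it.

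Levels are given as unique molecular identifiers (UMIs) summed over the cells of a class per 1000000 UMIs of that class (CPM), with exact Poisson 95% intervals that cover counting error only. The Non-NC cells held 2249527 UMIs, so the 3 UMIs that a count of 0 allows corresponded to 1.33 CPM. The median Non-NC cell had 8376.5 UMIs and 2516.5 detected genes, against 6943 UMIs and 1902 genes in ENC 1 to ENC 4 and 7227 UMIs and 2210 genes in NEP. The highest values of any Non-NC cell, each taken on its own, were 14997 UMIs and 3497 genes, and the authors kept cells below fixed limits on genes, UMIs and mitochondrial share. Mitochondrial genes took a median of 3.86% of UMIs in Non-NC cells, 3.48% in ENC 1 to ENC 4 and 3.67% in NEP. Ribosomal protein genes took 37.7%, 44.9% and 36.8%. No doublet caller was run here, and 102 cell barcodes occurred in both libraries of the series.

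The markers set the Non-NC cells apart from the crest label. WNT2B, a WNT ligand, stood at 649 CPM (616 to 683) in Non-NC cells, 10.7 CPM (9.7 to 11.9) in ENC 1 to ENC 4 and 827 CPM (812 to 842) in NEP. In the same order PAX6, a homeobox factor of the neural plate and eye, stood at 458 CPM (431 to 487), then 6.7 CPM (5.9 to 7.6) and finally 572 CPM (559 to 584). For both genes the Non-NC cells lay just under NEP and far above all 4 numbered subclusters, whose WNT2B levels ran from 10.1 to 12.3 CPM and whose PAX6 levels ran from 3.6 to 11.1 CPM.

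SOX10, the defining transcription factor of migrating crest, stood at 26.2 CPM (20.0 to 33.8) in Non-NC cells, 126 CPM (122 to 129) in ENC 1 to ENC 4 and 12.6 CPM (10.8 to 14.6) in NEP. TFAP2B, a crest and placode factor, stood at 108 CPM (94.9 to 122), at 446 CPM (439 to 453) and, lowest, in NEP at 36.3 CPM (33.2 to 39.5). Both crest markers therefore lay between the levels of ENC and NEP, with intervals that overlapped neither. FOXD3, an early crest factor, was low throughout, at 5.8 CPM (3.1 to 9.9) in Non-NC cells, 19.2 CPM in ENC 1 to ENC 4 and 1.9 CPM in NEP. The name ENC was thus at odds with the leading markers of these cells, and they are called Non-NC cells from here on, as the metadata do.

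**Figure D1:**
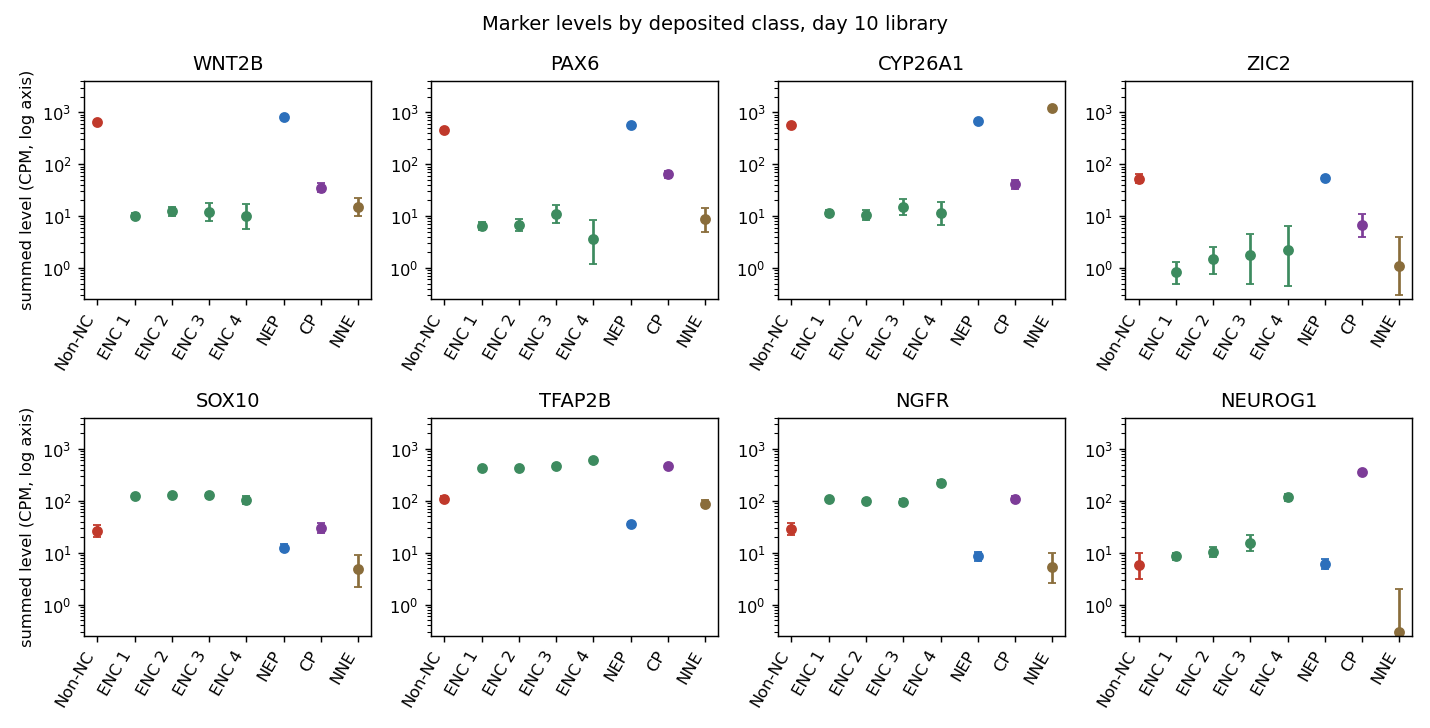
Summed level of 8 genes in each deposited class of the day 10 library, in CPM on a log axis, with exact Poisson 95% intervals as bars; a level of 0 is drawn at the lower edge. In WNT2B, PAX6, CYP26A1 and ZIC2 the Non-NC point sits beside NEP and above ENC 1 to ENC 4, in SOX10, TFAP2B and NGFR it sits between them, and in NEUROG1 it is far below CP.

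In the annotation of GRCh38 by GENCODE, WNT2B lies at chr1:112466541-112530165 on the plus strand, PAX6 at chr11:31784779-31818062 on the minus strand, SOX10 at chr22:37970686-37987422 on the minus strand and TFAP2B at chr6:50818723-50847613 on the plus strand. All are protein-coding. UMIs of the 3′ assay are counted per gene and do not tell which transcript or promoter was used.

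Cell by cell, most Non-NC cells carried NEP transcripts and few carried SOX10. Each cell was thinned at random to 3000 UMIs so that depth was equal, which left out 2 Non-NC cells and 13 NEP cells with fewer. At that depth WNT2B was detected in 189 of 254 Non-NC cells (74.4%, exact 95% interval 68.6 to 79.7), in 78.8% of NEP cells and in 2.94% of ENC 1 to ENC 4. PAX6 was detected in 169 of 254 (66.5%, 60.4 to 72.3), in 70.9% of NEP cells and in 1.99% of ENC 1 to ENC 4. For both genes the Non-NC share was close to that of NEP, and NNE cells, which served as the background of free RNA, gave 4.26% for WNT2B and 2.55% for PAX6 at a median depth of 7349 UMIs before thinning.

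SOX10 was detected in 17 of 254 thinned Non-NC cells (6.69%, 3.95 to 10.5), in 31.8% of ENC 1 to ENC 4, in 2.28% of NEP, in 7.12% of CP and in 0.851% of NNE. The share was above those of NEP and NNE, close to that of CP and far below that of the numbered subclusters. PAX6 and WNT2B were found together in 140 of 254 Non-NC cells (55.1%) and in 63.3% of NEP cells, but in 0.129% of ENC 1 to ENC 4. SOX10 and PAX6 were found together in 8 of 254 (3.15%, 1.37 to 6.11), in 1.56% of NEP cells and in 0.472% of ENC 1 to ENC 4, and for this rare pair the intervals of Non-NC and NEP overlapped. Without thinning, 40 of 256 Non-NC cells (15.6%) had UMIs of both SOX10 and PAX6, against 5.14% of NEP and 2.64% of ENC 1 to ENC 4, at the unequal depths given above.

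Across genes, the Non-NC cells differed from ENC 1 to ENC 4 in many genes and mostly by being higher. Ratios were taken on log2(CPM + 1), which understates the change of low genes, over genes that reached 50 CPM in either class and were detected in 10% or more of that class. Ribosomal protein and mitochondrial genes did not enter. A gene under 50 CPM in 1 class could enter only through the other, and the filter then set its direction. Of 2307 genes compared with ENC 1 to ENC 4, 223 (9.67%) were at least 2-fold higher in Non-NC cells and 52 (2.25%) at least 2-fold lower. Under TMM scaling, which lowered the median log2 ratio by 0.33, 154 were higher and 130 lower, so the balance between the directions rests on the scale and the excess of higher genes shrank. CXCL14, a chemokine, had the highest ratio, with 130 CPM against 1.18 CPM (60.2-fold), followed by PAX6 (59.8-fold) and WNT2B (55.3-fold). This order rests on the pseudocount, since CXCL14 had 41 UMIs in ENC 1 to ENC 4: with 5 CPM its log2 ratio fell from 5.91 to 4.45, behind WNT2B (5.38) and PAX6 (5.31). PAX6 was ahead of CXCL14 also with the mean of per-cell CPM and without the 10% of Non-NC cells with the most UMIs. Also among the highest 10 were the long non-coding RNA RP11-115D19.1, ANXA1 (an annexin, 271 against 4.73 CPM), CYP26A1, S100A16, PCP4 (a calmodulin regulator of neurons, 210 against 4.03 CPM) and TRPM3 (a cation channel, 197 against 3.89 CPM), at ratios of 40.5-fold to 48.8-fold. These genes include epithelial as well as neural genes, and in each of them NEP was also high.

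The genes furthest below ENC 1 to ENC 4 included the crest factors SOX10 and TFAP2B and had smaller ratios than those at the upper end. FXYD3, a regulator of the sodium pump, was lowest, with 12.0 against 62.2 CPM (4.86-fold lower). SOX10 was 4.65-fold lower, SPP1 (osteopontin) 4.62-fold lower at 45.3 against 213 CPM and TFAP2B 4.10-fold lower. SCRG1, ALX1 (a homeobox factor of cranial mesenchyme, 94.2 against 353 CPM), NGFR (the low-affinity neurotrophin receptor that marks crest, 28.9 against 110.0 CPM) and LINC01198 were also among the lowest 10, at ratios down to 3.59-fold. Each gene of the highest and lowest 10 kept its direction and stayed past 2-fold when ENC 1, ENC 2, ENC 3 or ENC 4 stood alone as the comparison.

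**Figure D2:**
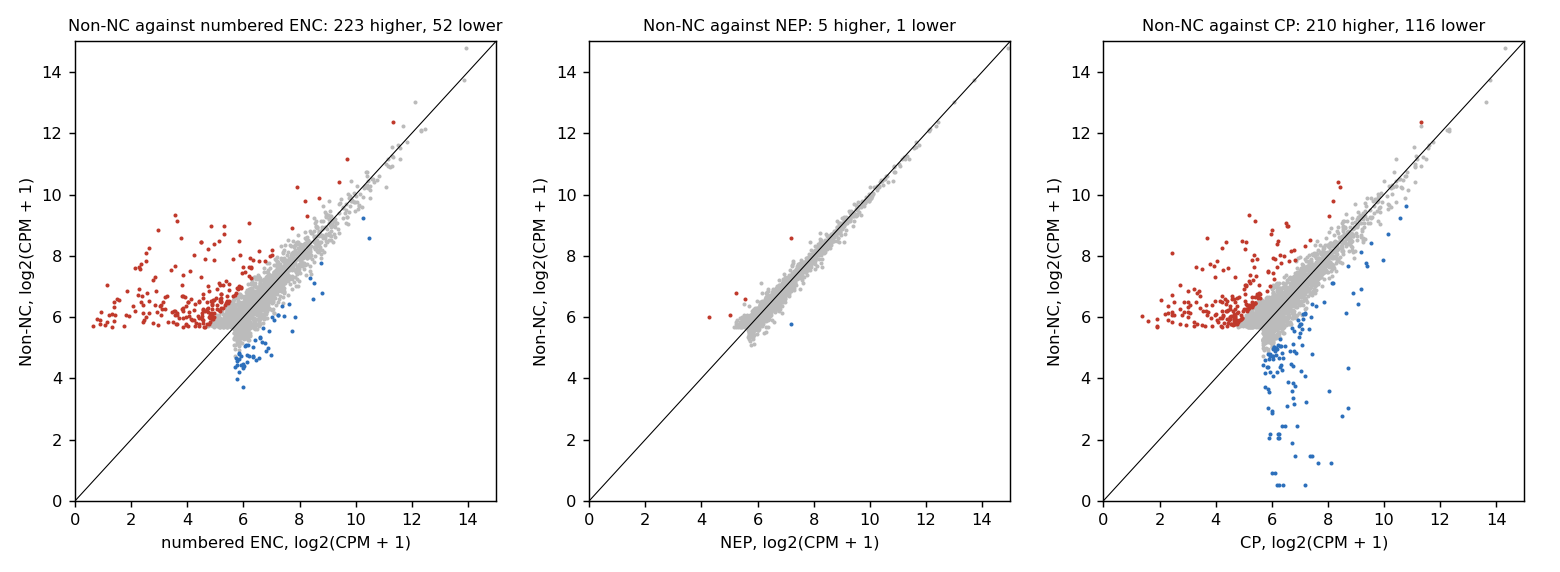
Level of each gene in Non-NC cells against numbered ENC, NEP and CP, as log2(CPM + 1) on both axes; each point is a gene, red points are at least 2-fold higher in Non-NC cells, blue points at least 2-fold lower, and the line marks equal levels. The panel against NEP holds 6 coloured points of 2248, while the other panels hold 275 of 2307 and 326 of 2389.

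Against NEP the picture was almost flat. Of 2248 genes, 5 (0.222%) were at least 2-fold higher in Non-NC cells and 1 (0.0445%) at least 2-fold lower, so 99.7% lay within 2-fold. Pearson's correlation of log2(CPM + 1) across genes was 0.985 with NEP over these 2248 genes, 0.752 with ENC 1 to ENC 4 over 2307 and 0.705 with CP over 2389, given as a description of classes that share 1 library. The higher genes included LINC01198 (63.1 against 18.2 CPM, 3.35-fold), TFAP2B (2.93-fold), DNAJC1, which encodes a chaperone of the endoplasmic reticulum (66.2 against 31.5 CPM, 2.07-fold), and ALX1 (94.2 against 45.9 CPM, 2.03-fold). Each of these was also higher in ENC than in NEP. DNAJC1 and ALX1 fell under 2-fold with TMM scaling, with a pseudocount of 5 CPM and without the 10% of Non-NC cells with the most UMIs, which left 3 higher genes.

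The lower gene was IGF2, a fetal growth factor, at 53.3 CPM (44.2 to 63.8) in Non-NC cells, 144 CPM (138 to 150) in NEP, 11.2 CPM in ENC 1 to ENC 4 and 2163 CPM in NNE. Next after it, still within 2-fold of NEP, came ADM (the vasodilator peptide adrenomedullin, 44.9 against 77.7 CPM), CCK (the peptide cholecystokinin, 43.6 against 74.7 CPM), CCDC140, LYPD1, ACTC1 (cardiac actin, 68.9 against 115 CPM), RP11-96L14.7, ARHGAP10, TRPM3 (197 against 312 CPM) and HSD17B2 (a steroid dehydrogenase, 58.7 against 91.1 CPM). At the upper end within 2-fold came GYPC (137 against 69.4 CPM), PCBP4, ACIN1, EIF4EBP1 (a translation repressor, 110.2 against 69.6 CPM) and GPATCH4. No gene marked the Non-NC cells by itself. Among 2135 genes at 50 CPM or more in Non-NC cells, 0 were at least 2-fold above each of ENC 1 to ENC 4, NEP, CP and NNE, and the gene whose smallest ratio was highest was CNOT4, a ubiquitin ligase, at 66.2 CPM against at most 48.4 CPM elsewhere. HIPK2, LINC00657, GRINA and KRIT1 followed, with smallest ratios of 1.29-fold to 1.32-fold.

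Against CP, 210 of 2389 genes (8.79%) were at least 2-fold higher in Non-NC cells and 116 (4.86%) at least 2-fold lower, several of the lowest being neuronal genes. Under TMM scaling the numbers were 153 higher and 156 lower. The lowest genes included STMN2 (a tubulin regulator of growing axons, 1.33 against 274 CPM), ONECUT2 (0.445 against 146 CPM), NHLH1, SEPT4, NEUROD1 (1.78 against 164 CPM), PPP1R17, NEUROG1 (the proneural factor of cranial ganglia, 5.8 against 362 CPM), MFNG and NEFM (a neurofilament, 7.1 against 424 CPM). Several of these rested on 1 to 4 UMIs in Non-NC cells, so their levels there were at or near the limit of detection. The highest ratios over CP were those of ANXA1, SFRP2 (a secreted WNT modulator, 381 against 12.0 CPM), ALDH1A1, GATA3, TRPM3, CXCL14, FILIP1, DMKN, WNT2B and KRT18, at 17.2-fold to 50.4-fold.

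The gene lists gave the same order, but they hold the markers above and were chosen with earlier results known, so they restate those markers in part. Of the 12 neural crest genes, 5 were high enough to compare with ENC 1 to ENC 4 and 4 of them were at least 2-fold lower, as were 2.25% of all 2307 genes (SOX10, TFAP2B, NGFR and ERBB3, the neuregulin receptor), with a median log2 ratio of -1.89 against a median of 0.12 over all 2307 genes. The fifth, PAX3, a border factor shared by neural plate and crest, stood at 74.2, 64.4 and 89.5 CPM in Non-NC cells, ENC 1 to ENC 4 and NEP. Among the lower genes, SOX10 and NGFR were under 50 CPM in Non-NC cells, so the filter set their direction. Summed, the crest list reached 325 CPM in Non-NC cells, 957 CPM in ENC 1 to ENC 4 and 198 CPM in NEP, and all 12 genes were detected. In the Schwann precursor and glia list 3 of 3 compared genes were lower, S100B among them at 39.1 against 96.2 CPM, beside the same 2.25% of all genes. S100B too entered only through ENC 1 to ENC 4. In the mesenchyme list 3 of 3 compared genes were lower (COL1A1, COL1A2 and EDNRA), again beside 2.25% of all genes, or 130 of 2317 with TMM scaling, with sums of 384, 627 and 305 CPM. In the enteric list RET, PHOX2A and GDNF were at 0.

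All 5 compared genes of the neuroepithelial list were at least 2-fold higher than in ENC 1 to ENC 4, as were 9.67% of all genes, with a median log2 ratio of 5.23. The 9.67% also covers genes at 50 CPM or more in both classes. All 5 listed genes were under 50 CPM in ENC 1 to ENC 4 and entered only through the Non-NC cells, so the filter set their direction. None of them was past 2-fold against NEP, where 0.222% of all genes were higher and 0.0445% lower, so that count says nothing particular to the list. Besides WNT2B and PAX6 they were CDH2 (N-cadherin, 129 against 25.6 CPM), ZIC2 (52.9 against 1.1 CPM) and LIX1 (70.2 against 0.9 CPM). SOX2, an early neural factor shared with crest progenitors, did not follow them, at 17.8, 21.5 and 16.1 CPM in Non-NC cells, ENC 1 to ENC 4 and NEP, and SOX1 was at 0. Regional genes were those of NEP: OTX1 (53.3 CPM) and OTX2 (66.2 CPM), factors of forebrain and midbrain, were at least 2-fold above ENC 1 to ENC 4, at 0.8 and 7.3 CPM, while the forebrain and eye factors SIX3 and LHX2 were at 0. OTX1 and OTX2 too entered only through the Non-NC cells. OTX1 was under 50 CPM on the TMM scale and was then not compared. No gene of the midbrain and hindbrain list was high enough to compare with ENC 1 to ENC 4. EN1, EN2, PAX2, PAX5, FGF8 and WNT1 were at 0, and PAX8, GBX2, LMX1B, EGR2 and IRX3 stood at 0.44 (GBX2) to 7.56 CPM (IRX3).

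Non-neural and pigment genes stood above ENC 1 to ENC 4 in the same way. The simple-epithelium keratins KRT8, KRT18 and KRT19 stood at 348, 353 and 190 CPM in Non-NC cells, at 21.4, 21.7 and 4.0 CPM in ENC 1 to ENC 4 and at 483, 538 and 266 CPM in NEP, and were several-fold higher again in NNE (1601, 2151 and 1225 CPM). KRT8 and KRT18 have processed copies in the genome that can share reads with them. GATA3, a factor of surface ectoderm, stood at 92.9 CPM, close to its 88.7 CPM in NEP. The epidermal genes TP63 and KRT5 were at 0 in Non-NC cells. PMEL (a melanosome protein, 257 CPM) and SERPINF1 (59.1 CPM) of the pigment list stood with TRPM3 above ENC 1 to ENC 4, while DCT, RPE65 and MLANA were at 0. Among the 12 placode genes EYA1, DLX6, PITX1 and FOXI3 were at 0 and the list summed to 20.0 CPM in Non-NC cells, 12.0 CPM in ENC 1 to ENC 4, 20.5 CPM in NEP and 239 CPM in CP. The sensory neuroblast list summed to 15.6 CPM against 1026 CPM in CP and the neuron list to 77.8 against 714 CPM, with ELAVL4, RBFOX3, SYN1 and SYP at 0.

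The other lists held few genes that could be compared. The lens list summed to 81.4 CPM in Non-NC cells, 11.1 CPM in ENC 1 to ENC 4 and 98.2 CPM in NEP, and the roof plate and choroid plexus list to 134, 6.34 and 178 CPM, with no gene of either list compared with ENC 1 to ENC 4. Of the pluripotency list 0 of 3 compared genes were past 2-fold against ENC 1 to ENC 4, where 88.1% of all 2307 genes lay within 2-fold. LIN28A stood at 271, 210 and 267 CPM in Non-NC cells, ENC 1 to ENC 4 and NEP, and NANOG was at or under the limit of 3 UMIs. Among cadherins and genes of the epithelial-mesenchymal transition, CDH2 was at least 2-fold above ENC 1 to ENC 4 and ZEB2, a repressor active in crest, at least 2-fold below at 66.2 against 150 CPM. Immediate early and stress genes summed to 278 CPM in Non-NC cells, 133 CPM in ENC 1 to ENC 4 and 260 CPM in NEP, with HSPA5 compared and within 2-fold. The Notch list summed to 147, 90.0 and 144 CPM.

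**Figure D3:**
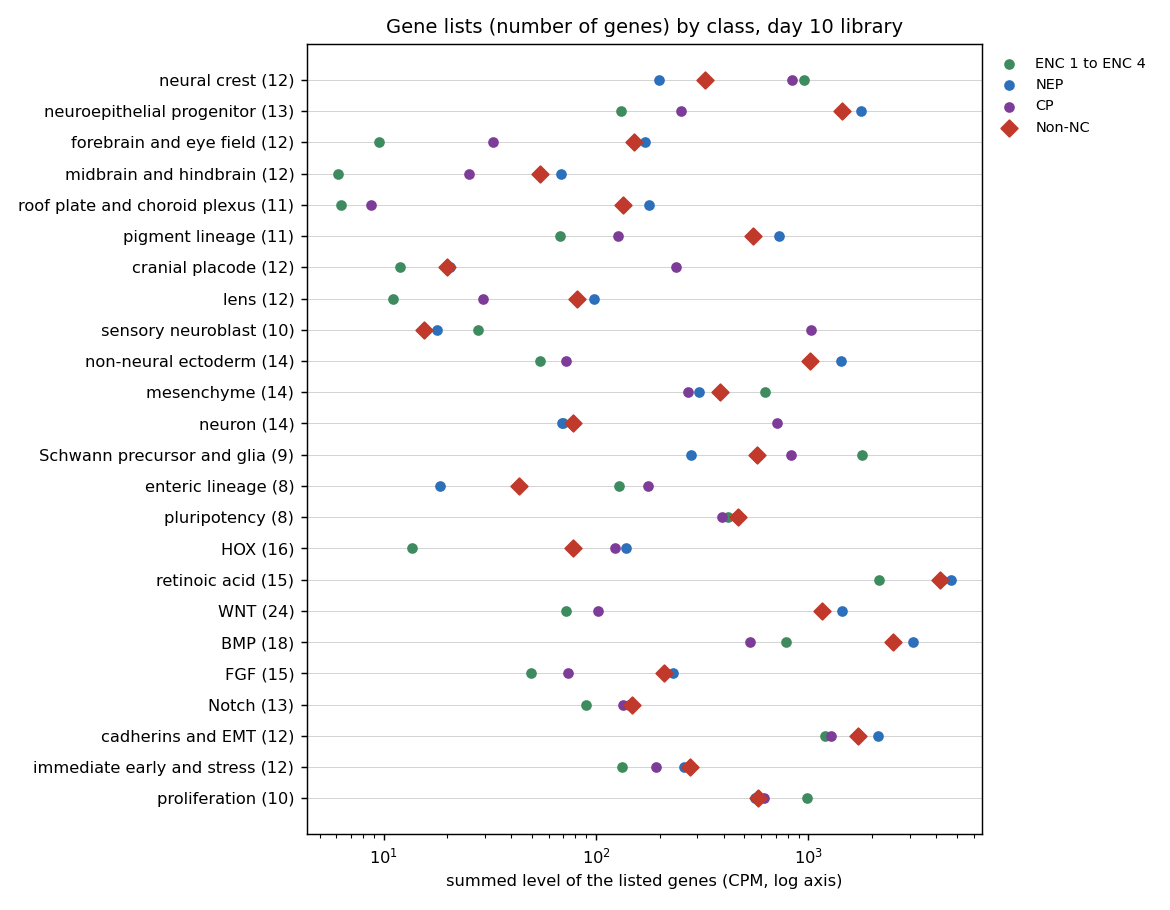
Summed level of each gene list in Non-NC cells, ENC 1 to ENC 4, NEP and CP, in CPM on a log axis, with the number of genes in brackets. Non-NC points lie near NEP in the neural, ectodermal and signalling lists and between ENC and NEP in the neural crest (325 CPM) and Schwann precursor and glia lists.

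Most genes of the retinoic acid, WNT, BMP and FGF lists that were high enough to compare were at least 2-fold higher than in the pooled ENC 1 to ENC 4, which had received the same medium, and no HOX or Notch gene was high enough. Except for CRABP1, CRABP2 and ID3, these higher genes were under 50 CPM in ENC 1 to ENC 4. They entered only through the Non-NC cells, so the filter set their direction and the counts largely follow from it. Of the 15 genes of the retinoic acid list, 6 were compared with ENC 1 to ENC 4 and 5 were at least 2-fold higher, beside 9.67% of all genes, with a median log2 ratio of 2.82. They covered the enzyme that degrades retinoic acid (CYP26A1, 568 CPM with an interval of 537 to 600 in Non-NC cells, 11.5 in ENC 1 to ENC 4 and 691 in NEP), an enzyme that makes it (ALDH1A1, 64.5, 2.8 and 86.3 CPM), a retinal reductase (DHRS3, 102, 4.2 and 112 CPM) and the binding proteins CRABP1 (232, 80.9 and 254 CPM) and CRABP2 (2297, 819 and 2665 CPM). The binding proteins did not set Non-NC cells apart from ENC 4, where CRABP1 was higher than in Non-NC cells at 512 CPM and CRABP2 stood at 1297 CPM, whereas CYP26A1 (11.6 CPM), ALDH1A1 (0.72 CPM) and DHRS3 (7.96 CPM) were low there too. The receptor gene RARB, itself a known retinoic acid target, was too low to compare, at 17.8 CPM (12.7 to 24.2), 10.7 CPM and 29.5 CPM. Of the 16 HOX genes listed 9 were at 0 in Non-NC cells, a count that was not compared with the other classes.

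CYP26A1 and RARB are shown at the sequence level because they are the listed retinoic acid genes whose start region holds the element that retinoic acid receptors are known to bind, a direct repeat of hexamers spaced by 5 bases. In the RefSeq promoter windows of GRCh38.p14, 250 bases before to 50 after a gene start, the strings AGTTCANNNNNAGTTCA and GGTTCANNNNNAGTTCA were searched on both strands. They were found in 4 (0.0114%) and 6 (0.0171%) of 35116 windows. The strings are the repeats known from these same 2 genes, so their presence there follows from the choice of strings. The CYP26A1 stretch is chr10:93073743-93073839 on the plus strand, inside the gene, which GENCODE places at chr10:93073475-93077890, and its repeat lies 74 to 90 bases before the later of 2 annotated starts. The RARB stretch is chr3:25428150-25428246 on the plus strand, inside the gene at chr3:25174332-25597932, with its repeat 37 to 53 bases before a start. Both are printed 5′ to 3′ with the repeat in capitals, which in CYP26A1 reads as the string on the opposite strand.
CYP26A1: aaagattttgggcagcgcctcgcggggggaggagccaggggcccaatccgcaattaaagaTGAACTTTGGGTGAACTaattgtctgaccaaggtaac
RARB: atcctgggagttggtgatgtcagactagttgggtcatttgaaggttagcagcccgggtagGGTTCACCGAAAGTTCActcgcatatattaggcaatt
The match is one of letters only. CYP26A1 was 45.5-fold higher in Non-NC cells than in ENC 1 to ENC 4, while RARB stayed at low levels in all the classes.

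In the WNT list 2 genes were compared and both were at least 2-fold higher than in ENC 1 to ENC 4, beside 9.67% of all genes. They were the ligand WNT2B and the secreted modulator SFRP2 (381, 12.8 and 468 CPM in Non-NC cells, ENC 1 to ENC 4 and NEP). The filter set the direction of both, as it did for BMP4, ID1, ID2 and FGFR1 below. The feedback target AXIN2 stood at 22.2 CPM (16.5 to 29.3), 10.5 CPM and 23.2 CPM and the receptor FZD10 at 15.6, 0.3 and 17.5 CPM, while the ligands WNT1, WNT3, WNT4, WNT7A and WNT8B were at 0. In the BMP list 4 of 4 compared genes were at least 2-fold higher, beside 9.67% of all genes: the ligand BMP4 (88.0, 1.6 and 117 CPM) and the target genes ID1 (497, 38.2 and 671 CPM), ID2 (413, 38.5 and 547 CPM) and ID3 (1351, 672 and 1585 CPM), which encode inhibitors of proneural factors. ID3 was under 2-fold with TMM scaling and against ENC 4 alone (1000.5 CPM). In the FGF list the receptor FGFR1 was the single gene compared and was higher at 88.0 against 20.3 CPM. None of the genes compared in the WNT, BMP, FGF, Notch, retinoic acid or HOX lists was past 2-fold against NEP, where 99.7% of all genes lay within 2-fold.

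Cell cycle calls put more Non-NC cells in G1 than cells of the pooled ENC 1 to ENC 4, and fewer than of NEP. The authors' phases gave 163 of 256 in G1 (63.7%, 57.5 to 69.6), 41 in S (16.0%) and 52 in G2M (20.3%), against 70.0%, 15.8% and 14.2% in NEP and 37.6%, 32.3% and 30.0% in ENC 1 to ENC 4. ENC 4 by itself, at 56.7%, 25.1% and 18.2%, was close to the Non-NC cells in G1 and G2M. Of the 10 proliferation genes, MKI67 stood at 82.2, 143 and 68.7 CPM and TOP2A at 143, 250 and 142 CPM in Non-NC cells, ENC 1 to ENC 4 and NEP, both within 2-fold. CCNA2, 1 of 8 compared genes of the list, was at least 2-fold lower than in ENC 1 to ENC 4, as were 2.25% of all 2307 genes. With TMM scaling 5 genes of the list were lower, MKI67 and TOP2A among them, beside 130 of all 2317 genes. Scored again with the gene sets of Seurat, 50.4% of Non-NC cells were in G1 and 34.4% in G2M, against 31.2% and 43.2% in ENC 1 to ENC 4 and 64.2% and 20.3% in NEP. ENC 4 had 52.9% and 23.0%. The rescored G2M share of Non-NC cells was thus nearer to that of the pooled ENC than to NEP, while G1 stayed above the pooled ENC and below NEP.

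To see where each cell stood, genes were chosen from ENC 1 to ENC 4 and NEP alone, without use of the Non-NC cells: 29 crest-side genes at least 4-fold higher in ENC and 139 NEP-side genes at least 4-fold higher in NEP. In the sum over Non-NC cells, 29 of 29 crest-side genes and 134 of 139 NEP-side genes lay between their ENC and NEP levels. On a scale from 0% at the ENC level to 100% at the NEP level, the summed crest-side genes lay at 80.6% and the summed NEP-side genes at 80.2%, with gene medians of 81.0% (quartiles 77.0% and 83.4%) and 79.2% (72.9% and 85.4%). The 5 NEP-side genes at or beyond the NEP level were S100A16, S100A13, ZNF608, NEAT1 and GATA3. The set as a whole thus stood the same way along the path from ENC to NEP on either side.

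The single cells were not spread evenly around that point. Crest-side genes took a median of 7.19 per 10000 UMIs of a Non-NC cell, with quartiles of 3.06 and 26.1, against medians of 51.1 in ENC 1 to ENC 4 and 3.37 in NEP. NEP-side genes took a median of 188, with quartiles of 135 and 250.04, against 17.4 and 245. In the plot of single cells most Non-NC cells overlay NEP, a second set lies between the classes on both axes, and few overlay ENC.

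**Figure D4:**
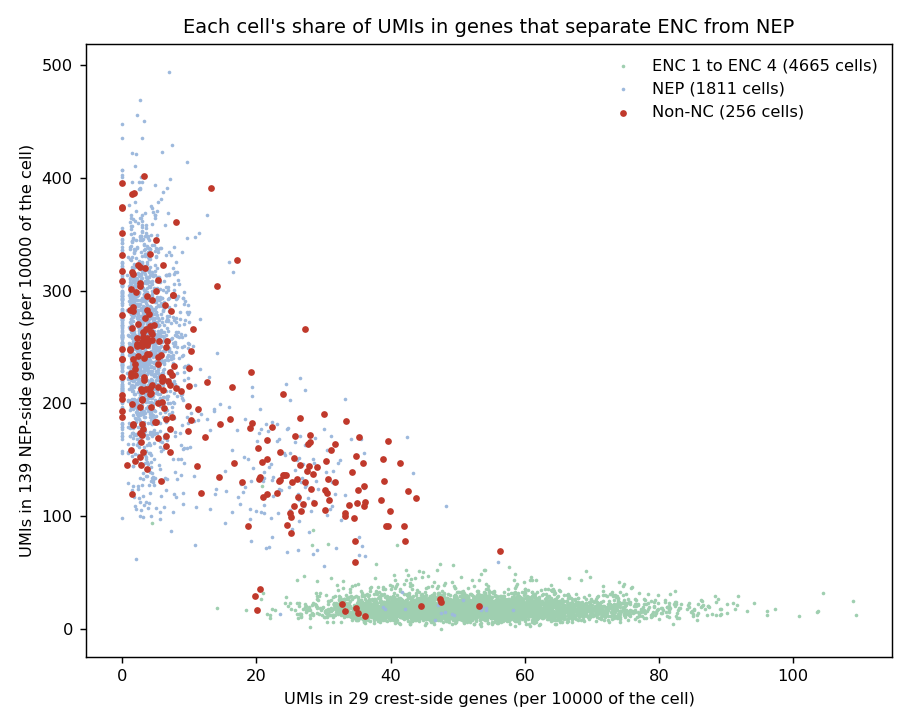
UMIs of each cell in 29 crest-side genes (x axis) and 139 NEP-side genes (y axis), per 10000 UMIs of the cell, for 256 Non-NC, 1811 NEP and 4665 numbered ENC cells. Of the Non-NC cells, 162 lie within the central range of NEP on both axes, 69 lie above that of NEP on crest-side genes and above that of ENC on NEP-side genes, and 7 lie within that of ENC.

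Within the 5th to 95th percentile range of NEP on both axes lay 162 Non-NC cells (63.3%, 57.1 to 69.2), against 87.4% of the NEP cells themselves. This NEP range also held 226 of 239 NNE cells (94.6%, 90.9 to 97.1), so lying in it does not tell NEP from NNE. Within the 5th to 95th percentile range of ENC 1 to ENC 4 lay 7 Non-NC cells (2.73%). Above the 95th percentile of NEP on crest-side genes and above that of ENC on NEP-side genes lay 69 (27.0%, 21.6 to 32.8). In the same zone lay 4.20% of NEP cells and 4.95% of ENC cells. Each cut-off leaves few cells of its own class above it by construction, so these 4.20% and 4.95% are not a background rate. The share of NEP cells within their own range is largely set in the same way. CP and NNE cells set no cut-off. Above both cut-offs lay 94 of 324 CP cells (95% interval 24.1% to 34.3%), which overlaps the interval of the Non-NC cells. The same zone held 6 of 239 NNE cells (0.927% to 5.38%). Lying above both cut-offs was thus not particular to the Non-NC cells. The remaining 18 Non-NC cells lay elsewhere. With the 1st to 99th percentile range, 232 lay within NEP, 9 within ENC and 10 in the double-high set. The 95th percentile of NEP on crest-side genes was 23.6 per 10000 and the 99th was 39.2 per 10000. The size of the middle set is thus a matter of where NEP is taken to end.

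The 69 double-high cells had more UMIs, with a median of 10838 against 8303 in the 162 cells within the NEP range, 7103 in NEP cells within that range and 12877.5 in the 76 double-high NEP cells. Their ribosomal share, which the axes did not use, had a median of 41.8%, between the 35.7% of the Non-NC cells within the NEP range and the 44.9% of ENC cells within the ENC range. In G1 were 63.8% of the double-high cells and 65.4% of the cells within the NEP range. In the double-high cells WNT2B stood at 536 CPM (483 to 593), PAX6 at 329 CPM (288 to 374) and SOX10 at 64.6 CPM (47.1 to 86.5). In the cells within the NEP range WNT2B stood at 726 CPM, PAX6 at 544 CPM and SOX10 at 7.9 CPM (4.0 to 14.2). These 3 genes are on the axes, so the contrast follows from the choice of cells. The part that droplets with more than 1 cell, or free RNA, had in the double-high cells was not tested.

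Assignment of each cell to its nearest class, which has no middle class, put a larger share with NEP than the ranges above. By the multinomial likelihood of its UMIs over 2851 genes under the summed profiles of ENC 1 to ENC 4, NEP, CP and NNE, 233 of 256 Non-NC cells (91.0%, 86.8 to 94.2) were nearest to NEP, 13 to ENC 2, 8 to ENC 1 and 2 to ENC 3. No Non-NC cell was nearest to ENC 4, CP or NNE, and 0 of 256 allows a share of up to 1.17%. With a cell's own UMIs taken out of its class, 95.5% of NEP cells were returned to NEP, and 1 of 3001 ENC 1 cells and 2 of 1129 ENC 2 cells were nearest to NEP.

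Clustering of the Non-NC cells alone gave 4 sub-clusters, whose leading genes are named as the basis of the clustering and not as findings. The first, of 93 cells with a median of 7432 UMIs, had 90 cells in G1 and all 93 nearest to NEP, and was led by MIAT, MXRA8 and ANXA6. The second, of 86 cells with a median of 9843 UMIs, was led by crest genes, NGFR, LINC01198, ERBB3 and SOX10 among them, with TFAP2B at 209 CPM against 52.4 CPM in the other Non-NC cells, and 20 of its cells were nearest to ENC. The third, of 64 cells, was led by cycling genes such as SPC25, CENPF and MKI67, with 61 cells nearest to NEP. The fourth, of 13 cells that were all in G2M, was led by mitotic genes such as CENPA, AURKA and CCNA2 and was nearest to NEP throughout. The median of NEP-side genes per 10000 UMIs was 248, 124, 197 and 220.0 in this order, lowest in the crest-gene sub-cluster. The clustering used variable genes of these same cells, so this describes how they divide and is not a separate result.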

How the data were processed

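Per the labels and the study's methods, 2 droplet 3′ libraries were made from H9-derived cultures, 1 at day 10 and 1 at day 15, each pooling 2 biological repeats. The authors deposited raw UMI counts per gene and cell over 33694 gene names. The study's methods name kallisto and bustools and the submitters' processing notes name Cell Ranger, Seurat 4.0.4 and GRCh38. Which of these tools made the deposited counts is not settled. The deposited metadata hold each cell's UMI and gene counts, the authors' percent values for mitochondrial and for ribosomal UMIs, a phase, a cell type and a subtype. The total of every cell equalled the metadata. The day 10 library held 9627 cells and 70488169 UMIs. The authors' filters had marked 2332 day 10 cells as removed, and these were left out. According to the methods, types and subtypes came from Louvain clustering of log-normalised counts of each library, with depth, mitochondrial and ribosomal share and cycle scores regressed out, and values of a marker can therefore separate classes by construction. The study removed a cluster of the ENC subset and clustered again, for high placode gene expression at day 10 and for high SYP at day 15. Whether the cells outside the numbered subclusters are those clusters is not stated.

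The UMIs of all cells in a class were added up and scaled to CPM. As each group was 1 library, replicates could not be compared, and no p-value or standard error was computed. Sums carry exact Poisson and shares exact Clopper-Pearson intervals at 95%, for counting error only, and a count of 0 was read against 3 counts. A gene was called past the fold at a log2 ratio of at least 1 in size, with a pseudocount of 1 CPM. Genes named are the 10 highest and 10 lowest ratios of each comparison, the 10 genes with the highest smallest ratio over every other class (of which 5 are given), and genes of 24 lists, and some genes that this rule selects are not reported here. The Non-NC cells, the lists and the comparisons were chosen with earlier results of these data known. The axes of crest-side and NEP-side genes and the promoter search were added after the data were seen. Ratios, intervals and class assignment were tested on simulated counts. Python 3.11.15, scanpy 1.11.5, leidenalg 0.10.2, R 4.3.3, edgeR 4.0.16 (TMM factors only) and Seurat 5.3.0 (cycle gene sets only) were used. Sub-clusters came from the Leiden method at resolution 0.5 on 15 components of 2000 variable genes.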

Additional observations from a re-analysis of the deposited data

How the results depend on the processing

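No paired analysis was possible because each group is 1 library and no test was made. The 20 named genes of each comparison kept their direction under every alternative run. Without a filter on low genes the counts past 2-fold rose to 2297 higher and 364 lower against ENC 1 to ENC 4, 142 higher and 240 lower against NEP, and 2334 higher and 952 lower against CP, over 20287, 19937 and 17346 genes. TMM scaling gave 130 lower genes against ENC 1 to ENC 4, and ENC 4 alone gave 88. Against NEP, TMM scaling, a pseudocount of 5 CPM and leaving out the 10% of cells with the most UMIs each gave 3 higher genes. Under TMM scaling 3 of 18 list counts changed by over 1.5 times: forebrain genes higher against ENC 1 to ENC 4 fell to 1, pluripotency genes lower rose to 1 and proliferation genes lower rose to 5. Marker shares moved with depth, as thinning is built to show. Thinned to 5000 UMIs, 79.5% of Non-NC cells had PAX6, 83.8% WNT2B, 72.5% both, 7.86% SOX10 with PAX6 and 8.73% SOX10 with WNT2B. With at least 2 UMIs at 3000 UMIs, the shares were 36.2% for PAX6, 49.2% for WNT2B, 24.02% for both, 0.787% for SOX10, 0 for SOX10 with PAX6 and 0.394% for SOX10 with WNT2B. Without thinning they were 84.4%, 87.9%, 80.1%, 19.1%, 15.6% and 16.8%. Phases scored again gave 50.4% in G1 and 34.4% in G2M, and the cause was not tested. The share nearest to NEP was 93.4% over 500 genes and 90.6% after thinning. Clustering gave 3 sub-clusters at resolution 0.3 and 8 at resolution 1.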

Other observations

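In the day 15 library 27 of 4934 cells typed ENC (0.547%) lay outside the numbered subclusters, at a median of 11059 UMIs against 11084 in the 4907 numbered cells. Their markers differed from those of the day 10 cells with the same kind of label. WNT2B was at 0, with 9.66 CPM as the limit that 3 UMIs set, and PAX6 rested on 3 UMIs. STMN2, a gene of growing axons, stood at 451 CPM (379 to 532) against 11.8 CPM in the numbered cells, and SYP, a synaptic vesicle gene, at 32.2 CPM (15.4 to 59.2) against 1.24 CPM. High SYP was the study's own reason for setting a day 15 cluster aside, so its level here may restate that choice. SOX10 stood at 61.2 CPM (36.8 to 95.6) against 103 CPM. The 27 cells came from 1 library, and stage, medium and library cannot be told apart between the days.

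At a finer resolution of the day 10 clustering, 14 Non-NC cells formed a sub-cluster of which 13 were nearest to ENC, with a median of 21.4 per 10000 UMIs in NEP-side genes and 35.0 in crest-side genes. Another sub-cluster of 28 cells, 27 of them in G1 and all nearest to NEP, had a median of 322 in NEP-side genes and 2.93 in crest-side genes and counted ALDH1A1 among its leading genes.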
